A study of Mus musculus with 9 samples.

Results

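Heme biosynthesis enzymes are the mitochondrial and cytosolic proteins that build heme from glycine and succinyl-CoA. The genes examined were Alas1, Alas2, Alad, Uros, Urod, Cpox, Ppox and Fech, each taken from the probe set that names it alone (the brightest where there were several). Of these 8 genes, 7 could be measured among 22180 genes in all, each by a single probe set. The only probe set of Alas2, the erythroid form of the enzyme of the first step, also names Apex2, so Alas2 was not analysed here.

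The arrays measured RNA of long-term haematopoietic stem cells from the bone marrow of C57BL/6 mice, sorted for absence of lineage markers, CD34 and CD135 and for presence of Sca-1 and c-kit. In the MxCre Jak2VF/+ EZH2-/- mice (hereafter Jak2VF/+ EZH2-/-) a mutant Jak2 allele was present together with loss of EZH2, in the MxCre Jak2VF/+ mice (Jak2VF/+) the mutant allele was present alone, and the WT mice served as controls. Each group held 3 biological replicates with 1 array each, and all mice were given pI-pC when 4 weeks old, in 5 doses of 300 µg, with marrow taken 12 weeks later. MxCre is a Cre recombinase under the interferon-inducible Mx promoter, which pI-pC switches on in blood-forming cells and in some other tissues. The sources used here do not say whether WT mice carried MxCre, and comparisons with WT may include the transgene.

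The median log2 signal of an array was 5.51 to 5.67. Among 18 measured stem cell markers (20 listed), Kit read 9.43 to 10.18, Procr 7.01 to 8.19 and Hlf 7.83 to 8.80. Others were dimmer, such as Fgd5 at 5.68 to 6.41. Between Jak2VF/+ and WT, 4 of the 18 differences were positive and 14 negative, where 55.8% of all genes were positive. The T cell gene Cd3e stayed at 4.72 to 5.16, unlike some other lymphoid genes, and 1374 olfactory and vomeronasal receptor genes, taken as a floor, averaged 3.83 to 4.32. Cd34, whose protein the sort gate excluded, read 9.91 to 10.68. Ezh2 read 8.08 to 8.47 in Jak2VF/+ EZH2-/-, 8.78 to 9.09 in Jak2VF/+ and 8.48 to 8.81 in WT, and the sources used here do not say whether its probe set lies inside the deletion. Jak2VF/+ EZH2-/- replicates 1 and 2 carried Y-linked signal and the other 7 arrays did not. The sex-linked gene Xist read 4.86 and 4.56 on those 2 arrays and 10.84 to 11.31 on the other 7. Sex is thus partly confounded with genotype wherever Jak2VF/+ EZH2-/- is compared with another group.

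Heme is an iron-bearing ring that haemoglobin, cytochromes, catalase and peroxidases need. Its synthesis begins in the mitochondrion with 5-aminolevulinate synthase, passes through the cytosol for the middle steps, and returns to the mitochondrion, where ferrochelatase inserts the iron. ALAS1 is the form used by most cells and is held down by heme itself, whereas ALAS2 and high levels of the later enzymes belong to red cell precursors, in which GATA1 and KLF1 drive many of these genes.

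All values below are log2 signals, and a difference of 1 is a 2-fold change. None of the 7 genes passed an adjusted p of 0.05 in any comparison, and the estimates differed from gene to gene. Alad, Urod and Cpox averaged highest in Jak2VF/+ EZH2-/-, Fech averaged 7.13 in both mutant groups and 6.70 in WT, and Alas1, Uros and Ppox had differences of at most 0.22 in each comparison. The plot of the genes on each array shows the 9 values of each.

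**Figure D1:**
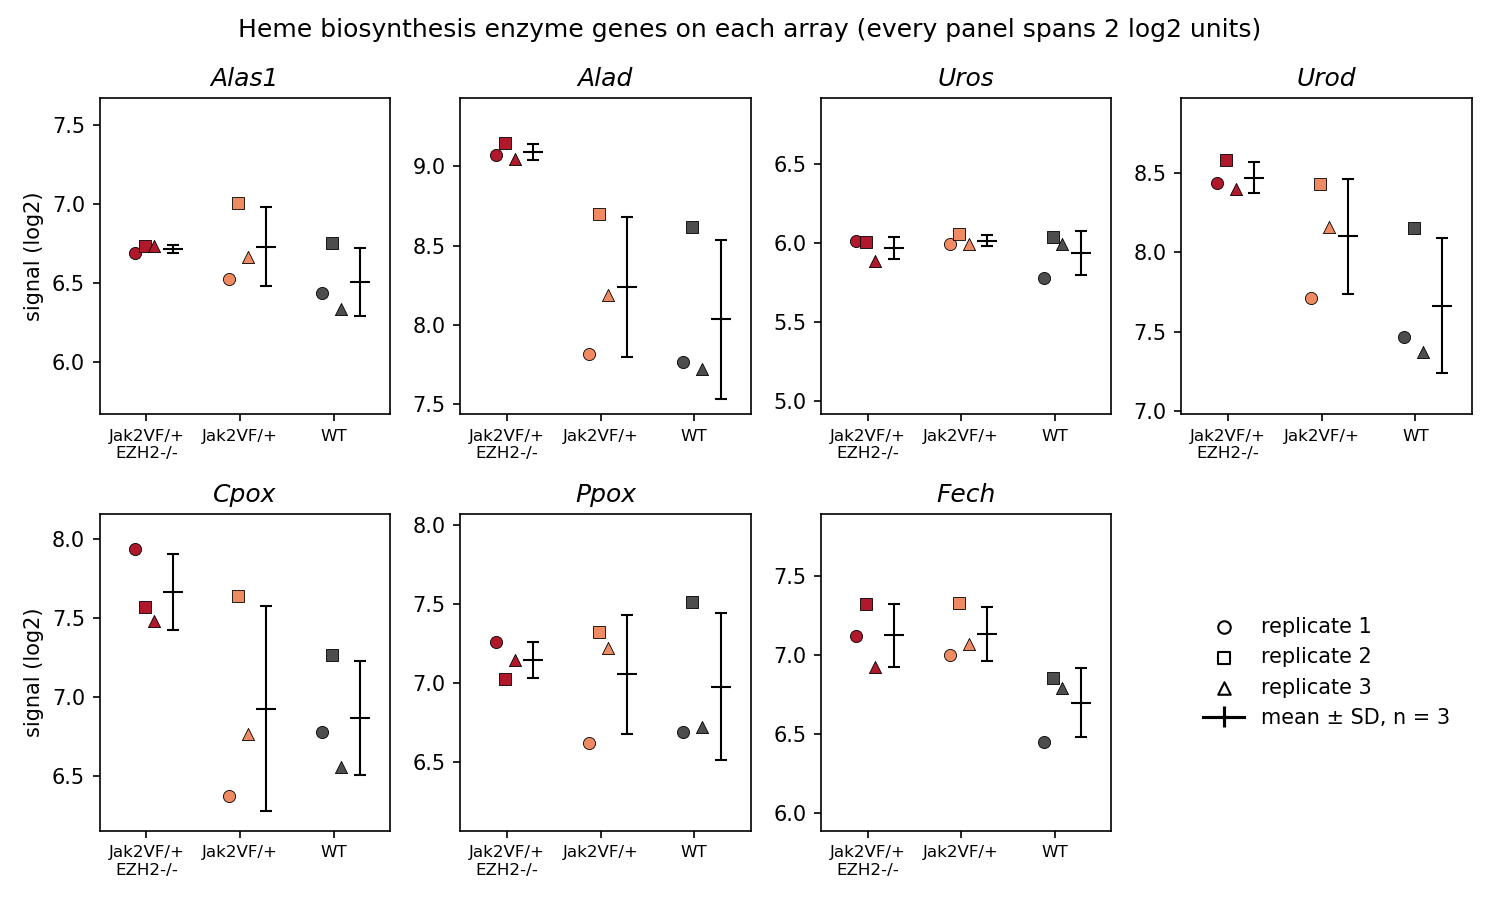
Log2 signal of the 7 measured heme biosynthesis enzyme genes, in the order of the pathway, on each array of Jak2VF/+ EZH2-/-, Jak2VF/+ and WT, with the replicate given by the symbol and the mean ± SD (n = 3) beside the points. The 3 Jak2VF/+ EZH2-/- arrays read 9.05 to 9.15 for Alad, above all other arrays, while replicate 2 was the highest array of Jak2VF/+ and of WT in every panel.

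The promoters of 4 of these genes are shown as the sequences to which the red cell regulators named above would be matched: Alad, Urod and Cpox, which had the largest differences between Jak2VF/+ EZH2-/- and WT, and Alas1, which had a small one. Each is the 250 bases before the start listed by RefSeq (GRCm38.p6), the outermost where several are listed (Alad and Alas1), written 5′ to 3′ on the strand of the gene. A match to AGATAA or TGATAA, the letters bound by GATA factors, is in capitals on either strand. For Urod the listed span of the gene reaches chr4:116994436, inside the stretch shown.
Alad (chr4:62520064-62520313, minus strand): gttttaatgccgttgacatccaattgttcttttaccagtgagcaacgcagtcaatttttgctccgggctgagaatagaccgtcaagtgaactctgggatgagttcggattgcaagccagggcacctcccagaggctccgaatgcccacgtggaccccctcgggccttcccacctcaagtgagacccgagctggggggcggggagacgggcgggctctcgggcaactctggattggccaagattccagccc
Urod (chr4:116994414-116994663, minus strand): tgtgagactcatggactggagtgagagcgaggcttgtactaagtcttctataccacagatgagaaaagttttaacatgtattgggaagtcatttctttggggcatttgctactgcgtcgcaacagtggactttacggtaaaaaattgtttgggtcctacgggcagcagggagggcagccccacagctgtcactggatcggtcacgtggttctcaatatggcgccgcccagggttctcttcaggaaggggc
Cpox (chr16:58669958-58670207, plus strand): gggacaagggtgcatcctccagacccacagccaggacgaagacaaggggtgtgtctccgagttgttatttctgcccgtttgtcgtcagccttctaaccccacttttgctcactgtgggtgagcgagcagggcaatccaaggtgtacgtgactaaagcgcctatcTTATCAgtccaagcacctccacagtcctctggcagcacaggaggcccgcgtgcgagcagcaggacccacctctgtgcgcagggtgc
Alas1 (chr9:106247955-106248204, minus strand): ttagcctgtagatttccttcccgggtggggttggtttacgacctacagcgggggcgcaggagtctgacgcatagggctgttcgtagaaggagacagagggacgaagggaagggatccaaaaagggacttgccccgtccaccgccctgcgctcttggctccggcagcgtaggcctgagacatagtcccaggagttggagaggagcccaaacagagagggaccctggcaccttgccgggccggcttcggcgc
The Cpox stretch held 1 match, TGATAA on the strand opposite to the gene (printed as TTATCA), 86 to 81 bases before the start, and the other 3 stretches held none. Over every stretch that RefSeq lists for the 8 genes, a match also occurred in 1 of 2 for Uros, the gene with the smallest difference between Jak2VF/+ EZH2-/- and WT, and in the 1 for Alas2. Of 32851 such stretches in the RefSeq table, 16.6% held either form. The letters CACCC, read by KLF factors, occurred on either strand 4 times in Cpox, once in Alas1 and in neither Alad nor Urod, and in 52.0% of all stretches. These are letter matches only.

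The comparison of Jak2VF/+ EZH2-/- with Jak2VF/+ addressed EZH2 loss on the background of mutant Jak2. Alad encodes 5-aminolevulinate dehydratase, which joins 2 molecules of aminolevulinate to porphobilinogen. It read 9.07, 9.15 and 9.05 in the 3 Jak2VF/+ EZH2-/- arrays, against 7.82, 8.70 and 8.19 in Jak2VF/+ arrays and 7.76, 8.62 and 7.72 in WT arrays. All Jak2VF/+ EZH2-/- arrays lay above all arrays of both other groups. The mean was 9.09 ± 0.05 in Jak2VF/+ EZH2-/-, 8.24 ± 0.44 in Jak2VF/+ and 8.03 ± 0.50 in WT (SD, n = 3 each). The difference from Jak2VF/+ was 0.85 (1.81-fold) with a standard error of 0.27 and did not pass over all genes (limma, unadjusted p = 0.0102, adjusted p = 0.529).

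Cpox encodes coproporphyrinogen oxidase, which carries out the first of the closing steps inside the mitochondrion. It read 7.94, 7.57 and 7.49 in Jak2VF/+ EZH2-/- arrays, against 6.38, 7.64 and 6.77 in Jak2VF/+ arrays and 6.78, 7.27 and 6.56 in WT arrays. Jak2VF/+ replicate 2 lay above Jak2VF/+ EZH2-/- replicates 2 and 3, so these groups overlapped. The mean difference from Jak2VF/+ was 0.74 with a standard error of 0.31 (limma, unadjusted p = 0.0375, adjusted p = 0.696).

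Urod, for the decarboxylase of the last cytosolic step, read 8.44, 8.58 and 8.40 in Jak2VF/+ EZH2-/- arrays, against 7.72, 8.43 and 8.16 in Jak2VF/+ arrays and 7.47, 8.15 and 7.37 in WT arrays. Again only Jak2VF/+ replicate 2 reached the level of Jak2VF/+ EZH2-/-. The difference from Jak2VF/+ was 0.37 with a 95% interval of -0.15 to 0.89 (limma, adjusted p = 0.789).

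The remaining 4 genes differed by 0.09 or less between Jak2VF/+ EZH2-/- and Jak2VF/+. For Alas1 the difference was -0.01, with a 95% interval of -0.37 to 0.35. For Uros, whose uroporphyrinogen III synthase closes the ring, it was -0.05 (-0.32 to 0.22). For Ppox, whose protoporphyrinogen oxidase precedes iron insertion, it was 0.09 (-0.46 to 0.64), and for Fech, the ferrochelatase gene, it was -0.01 (-0.37 to 0.36). The intervals are wide, so these values do not show equal levels.

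In this comparison 0 of the 7 genes passed the adjusted threshold with limma or with ordinary least squares, against 0.0451% of all 22180 genes with limma. At an unadjusted p under 0.05, 2 of 7 were higher (Alad and Cpox) and 0 were lower, where 2.91% of all genes were higher and 3.99% lower. Groups did not overlap, with Jak2VF/+ EZH2-/- above, for 1 of 7, against 4.18% of all genes. Differences were above 0 for 4 of 7, against 41.8% of all genes, and their median was 0.09, beside -0.04 over all genes. The size of the Alad, Cpox and Urod estimates turned on single Jak2VF/+ arrays. Without Jak2VF/+ replicate 1 the difference was 0.65 for Alad, 0.46 for Cpox and 0.18 for Urod. Without replicate 2 it was 1.09 for Alad, 1.09 for Cpox and 0.54 for Urod.

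**Figure D2:**
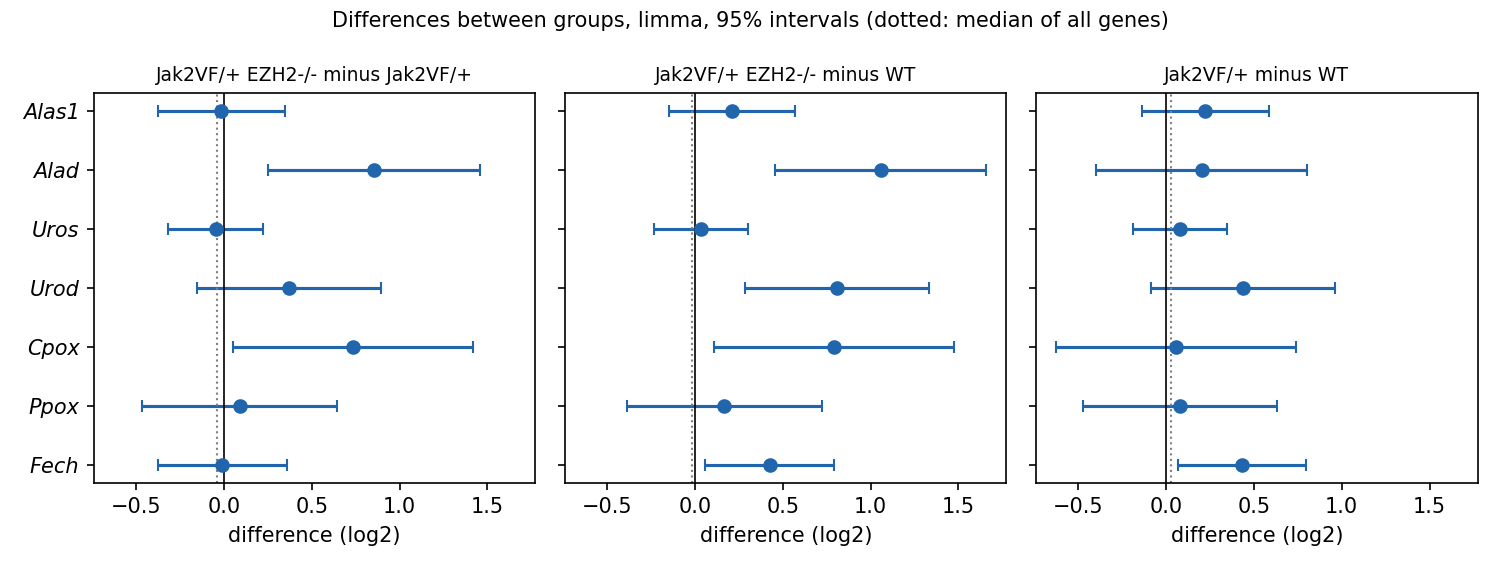
Differences in log2 signal for the 7 genes in the 3 comparisons, with 95% intervals of the limma fit before any adjustment over genes; the solid line marks 0 and the dotted line the median of all genes. The Alad estimate is 0.85 against Jak2VF/+ and 1.06 against WT, and the Jak2VF/+ minus WT estimates lie between 0.06 and 0.44.

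The comparison of Jak2VF/+ EZH2-/- with WT joined both alleles. It shares arrays with each of the other comparisons, so the 3 sets of values are not independent. Alad differed by 1.06 (2.08-fold) at a standard error of 0.27 (limma, unadjusted p = 0.00295, adjusted p = 0.4). Urod averaged 8.47 ± 0.10 in Jak2VF/+ EZH2-/- and 7.66 ± 0.43 in WT (SD, n = 3 each), a difference of 0.81 with a standard error of 0.23 (limma, adjusted p = 0.447). Cpox averaged 7.66 ± 0.24 in Jak2VF/+ EZH2-/- and 6.87 ± 0.36 in WT (SD, n = 3 each), a difference of 0.79 with a standard error of 0.31 (limma, adjusted p = 0.537).

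Fech read 7.12, 7.33 and 6.93 in Jak2VF/+ EZH2-/- arrays and 7.001, 7.33 and 7.07 in Jak2VF/+ arrays, against 6.45, 6.86 and 6.80 in WT arrays. Every array of both mutant groups lay above every WT array, and the mutant groups overlapped each other. The difference between Jak2VF/+ EZH2-/- and WT was 0.42 with a standard error of 0.16 (limma, unadjusted p = 0.0272, adjusted p = 0.537). It was 0.24 with Y-linked signal as a covariate and 0.23 without both arrays that carry it. Alas1 differed by 0.21, Ppox by 0.17 and Uros by 0.03 between these groups, each with overlapping arrays.

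With limma or ordinary least squares, 0 of the 7 genes passed between Jak2VF/+ EZH2-/- and WT, against 0.0225% of all genes with limma. At an unadjusted p under 0.05, 4 were higher (Alad, Urod, Cpox and Fech) and 0 lower, where 4.54% of all genes were higher and 4.06% lower. For the same 4 genes the groups did not overlap, against 6.28% of all genes with Jak2VF/+ EZH2-/- above WT. All 7 differences were above 0, against 46.5% of all genes, and their median was 0.42, beside -0.02 over all genes.

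Jak2VF/+ was set against WT for the mutant Jak2 allele alone. Fech differed by 0.43 (1.35-fold) at a standard error of 0.16 (limma, unadjusted p = 0.025, adjusted p = 0.924), and its 3 Jak2VF/+ arrays lay above all WT arrays. Urod averaged 8.10 ± 0.36 in Jak2VF/+ and 7.66 ± 0.43 in WT (SD, n = 3 each), a difference of 0.44 with overlapping arrays (limma, adjusted p = 0.924). This difference was 0.27 without Jak2VF/+ replicate 2, 0.29 without WT replicate 3 and 0.68 without WT replicate 2. For Alad the difference was 0.20 with a 95% interval of -0.40 to 0.80, and for Cpox 0.06 with an interval of -0.62 to 0.74. Alas1 read 6.52, 7.01 and 6.66 in Jak2VF/+ arrays, against 6.43, 6.75 and 6.33 in WT arrays, which overlap, with a difference of 0.22. With limma or ordinary least squares, 0 of the 7 passed, as did 0.0% of all genes with limma. At an unadjusted p under 0.05, 1 of 7 was higher and 0 lower, where 2.85% of all genes were higher and 1.81% lower. The groups did not overlap for 1 of 7 genes, against 3.54% of all genes with Jak2VF/+ above WT. All 7 differences were above 0, against 55.8% of all genes, and their median was 0.20, beside 0.03 over all genes.

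Within Jak2VF/+ and within WT the same array was highest for all 7 genes, whereas in Jak2VF/+ EZH2-/- the highest array differed from gene to gene. Replicate 2 was the highest array of both Jak2VF/+ and WT for all 7 genes, a pattern that 22.9% of all genes had. Alad spanned 0.10 over the 3 Jak2VF/+ EZH2-/- arrays, against 0.88 in Jak2VF/+ and 0.90 in WT. Cpox spanned 0.45 in Jak2VF/+ EZH2-/-, 1.26 in Jak2VF/+ and 0.71 in WT. Ppox read 7.26, 7.03 and 7.14 in Jak2VF/+ EZH2-/- arrays, against 6.62, 7.32 and 7.22 in Jak2VF/+ arrays and 6.69, 7.51 and 6.72 in WT arrays. The span was smallest in Jak2VF/+ EZH2-/- for 5 of the 7 genes (Alas1, Alad, Urod, Cpox and Ppox), as for 44.4% of all genes. Uros, the flattest gene, stayed between 5.78 and 6.06 on all arrays.

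As a description over the 9 arrays, which share groups and array quality, Pearson's r between genes was highest for Alad with Urod, at 0.943, and with Cpox, at 0.927. It was lowest for Uros with Cpox, at 0.267. After each group's mean was taken away, Alad and Urod still had r = 0.983 and Alad and Alas1 r = 0.973. Among 17104 named genes, the one whose pattern over the 9 arrays was most like that of Cpox was Klf1, for the erythroid regulator KLF1 (r = 0.972), followed by Gps2 (0.967) and Sec61g (0.958). The genes most like Alad were Mrps17, of the mitochondrial ribosome (0.988), Hint1 (0.983) and Uqcc2 (0.982). For Urod they were Glipr2, Cdk2ap1 and Prickle3 (0.980 to 0.973), and for Alas1 Atp9b, Fkbp8 and Smpd4 (0.985 to 0.977). Uros was most like Rbm28, Slc30a9 and Mfn1 (0.983 to 0.969), Ppox like Sugp2, Pfkm and Cnih1 (0.963 to 0.961), and Fech like Secisbp2, Wsb2 and Rnf2 (0.964 to 0.953).

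Other measures also varied from array to array, and their correlation with the enzymes was not computed. Relative to the WT mean, the mean of the 7 genes was 0.55, 0.53 and 0.42 in Jak2VF/+ EZH2-/- arrays, -0.09, 0.54 and 0.20 in Jak2VF/+ arrays and -0.19, 0.36 and -0.17 in WT arrays. The mean of 23 measured erythroid markers (26 listed) was 0.51, 0.33 and 0.28 in Jak2VF/+ EZH2-/-, -0.36, 0.30 and -0.11 in Jak2VF/+ and -0.22, 0.34 and -0.12 in WT. Replicate 2 was thus the highest array of Jak2VF/+ and of WT for these markers too. Their summed linear signal was 6161 to 7172 in Jak2VF/+ EZH2-/-, 3699 to 7116 in Jak2VF/+ and 4822 to 7038 in WT. Of the defining red cell genes, Slc4a1, the anion exchanger of the red cell membrane, stayed at 5.80 to 6.56 and Epb42 at 5.18 to 5.75 on all arrays, whereas Car1 and Car2 read 9.94 to 11.46 and 10.13 to 10.87.

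Cell cycle genes (29 of 30 measured, a list chosen after the values were seen) had means of 0.17, 0.01 and 0.13 in Jak2VF/+ EZH2-/-, 0.23, 0.75 and -0.02 in Jak2VF/+ and -0.41, 0.33 and 0.08 in WT. The receptor genes that serve as a floor of the array averaged 3.95, 4.05 and 3.90 in Jak2VF/+ EZH2-/-, 4.32, 3.83 and 3.92 in Jak2VF/+ and 4.22, 3.87 and 4.32 in WT. The 3 arrays with the highest floor, Jak2VF/+ replicate 1 and WT replicates 1 and 3, were the 3 arrays with the lowest enzyme mean. With the receptor signal as a covariate, chosen after the values were seen, the difference between Jak2VF/+ EZH2-/- and Jak2VF/+ was 0.76 for Alad and 0.64 for Cpox. Between Jak2VF/+ EZH2-/- and WT it was then 0.77 for Alad, 0.57 for Urod and 0.50 for Cpox, and Ppox turned to -0.11. Genes of other blood cells also differed between arrays. The mean of 12 T and NK cell markers was 0.39, 0.60 and 0.65 in Jak2VF/+ EZH2-/- arrays, 0.13, -0.04 and 0.09 in Jak2VF/+ arrays and 0.14, -0.01 and -0.13 in WT arrays, relative to the WT mean. Among them, named after their values were seen, Ccl5 read 9.38 to 9.91, Klrd1 6.33 to 7.10 and Il7r 6.05 to 7.33 in Jak2VF/+ EZH2-/-, above all 6 other arrays. Other members went the other way: Nkg7, Thy1 and Cd4 averaged 9.11, 6.426 and 5.24 in Jak2VF/+ EZH2-/-, against 9.86, 6.925 and 5.63 in Jak2VF/+, without overlap. Between these groups 8 of the 12 differences were positive and 4 negative, where 41.8% of all genes were positive. The B cell marker mean (9 of 11 measured) was 1.22 and the neutrophil marker mean (12 of 12) 1.01 in Jak2VF/+ EZH2-/- replicate 3, each the highest of the 9 arrays. Without that replicate, Alad differed by 0.87 between Jak2VF/+ EZH2-/- and Jak2VF/+ and by 1.08 between Jak2VF/+ EZH2-/- and WT.

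The part of red cell precursors, of lymphoid and neutrophil cells and of proliferation in these values was not tested, and in sorted populations more cells of a type and more RNA per cell cannot be told apart.

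**Figure D3:**
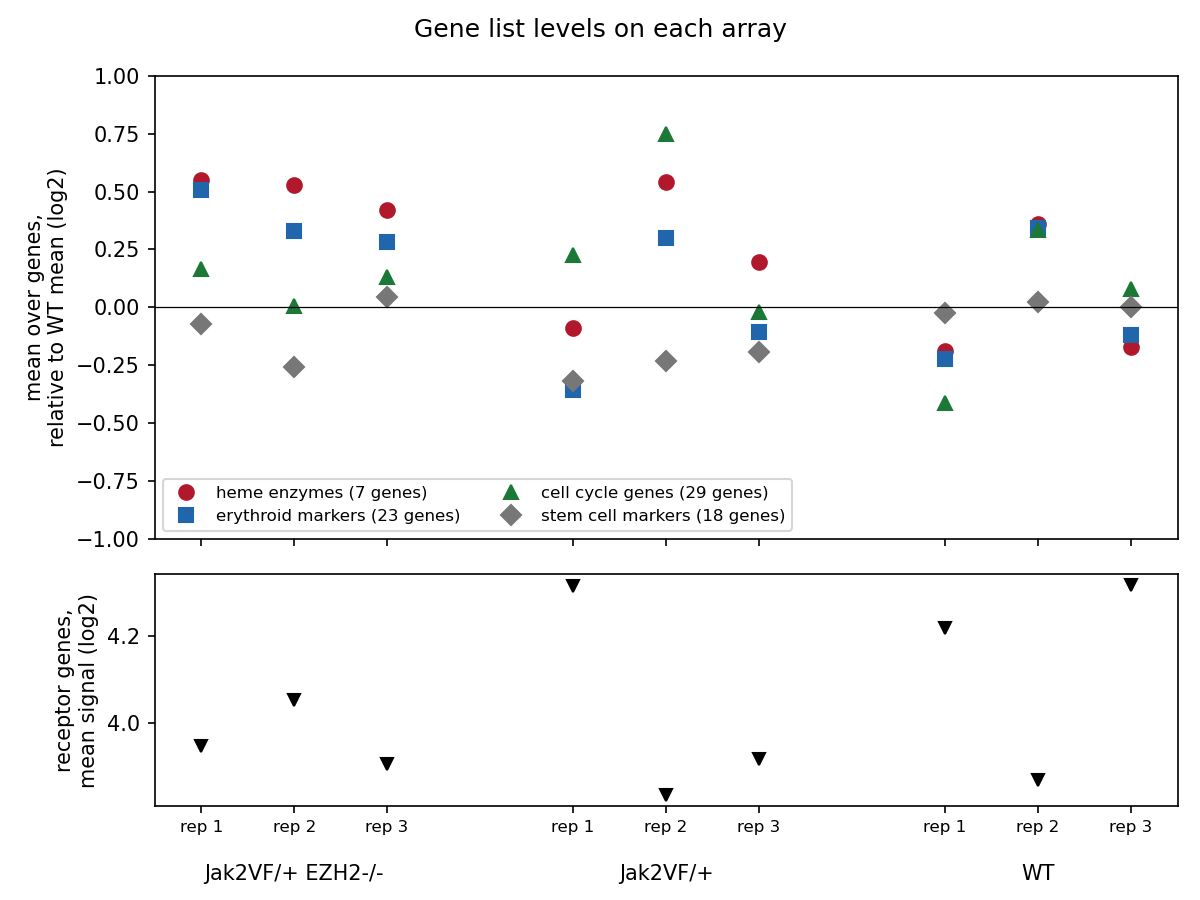
Upper panel, mean log2 signal of the heme enzymes, erythroid markers, cell cycle genes and stem cell markers on each array, relative to the WT mean of each gene; lower panel, mean log2 signal of 1374 receptor genes. The enzyme mean is 0.42 to 0.55 in Jak2VF/+ EZH2-/- arrays, -0.09 to 0.54 in Jak2VF/+ arrays and -0.19 to 0.36 in WT arrays, and the 3 arrays with the lowest enzyme mean are the 3 with the highest receptor signal.

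Regulators of the pathway were measured for all 20 listed genes, and 0 passed in any comparison with limma. Klf1 read 8.07, 7.90 and 7.57 in Jak2VF/+ EZH2-/- arrays, against 6.41, 7.82 and 6.62 in Jak2VF/+ arrays and 6.71, 7.60 and 6.78 in WT arrays. As for Cpox, replicate 2 of Jak2VF/+ reached the level of Jak2VF/+ EZH2-/-. Unlike for Cpox, WT replicate 2 also lay above Jak2VF/+ EZH2-/- replicate 3. The difference of Klf1 from Jak2VF/+ was 0.90 with a standard error of 0.36 (limma, adjusted p = 0.683). Gata1, for the factor that drives red cell genes, differed by 0.04 between Jak2VF/+ EZH2-/- and Jak2VF/+, by 0.24 between Jak2VF/+ EZH2-/- and WT, and by 0.20 between Jak2VF/+ and WT. Gata2, its counterpart in stem cells, differed by 0.47 between Jak2VF/+ and WT, whose arrays did not overlap (limma, adjusted p = 0.924). Nr1d1, a heme-binding nuclear receptor, differed by -0.37 between Jak2VF/+ EZH2-/- and Jak2VF/+ (limma, adjusted p = 0.696). The median of the list was 0.04 for Jak2VF/+ EZH2-/- minus Jak2VF/+, 0.21 for Jak2VF/+ EZH2-/- minus WT and 0.16 for Jak2VF/+ minus WT.

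Heme and porphyrin carriers were measured for 14 of 15 genes. Between Jak2VF/+ EZH2-/- and Jak2VF/+ 10 differences were positive and 4 negative, where 41.8% of all genes were positive. The median of the carriers was 0.19, and 0 passed the adjusted threshold with limma. The smallest p-values belonged to Hebp1, for a cytosolic heme-binding protein, at 0.61, Abcg2, for an exporter of porphyrins, at 0.40, and Slc25a39, for a mitochondrial carrier, at 0.37, which were 3 of 14 with an unadjusted p under 0.05 on the higher side, where 2.91% of all genes were. Between Jak2VF/+ EZH2-/- and WT, 8 carriers were positive and 6 negative, where 46.5% of all genes were positive, with a median of 0.15. Tmem14c, which moves protoporphyrinogen within the mitochondrion, differed by 0.77 with overlapping arrays (limma, adjusted p = 0.561). Tspo, a porphyrin-binding protein of the outer mitochondrial membrane, differed by 0.70 (limma, adjusted p = 0.501). Between Jak2VF/+ and WT, 6 carriers were positive and 8 negative, where 55.8% of all genes were positive, with a median of -0.04. Tspo differed by 0.52 and Abcg2 by -0.30 there.

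Iron supply genes were measured for 16 of 17, and 0 passed with limma in any comparison. Tfrc, for the transferrin receptor through which cells take up iron, read 8.34, 8.40 and 7.99 in Jak2VF/+ EZH2-/- arrays and 8.39, 8.998 and 8.01 in Jak2VF/+ arrays, against 6.89, 7.85 and 7.95 in WT arrays. Every mutant array lay above every WT array, as for Fech. The difference from WT was 0.68 with a standard error of 0.31 for Jak2VF/+ EZH2-/- (limma, adjusted p = 0.592) and 0.90 with the same standard error for Jak2VF/+ (limma, adjusted p = 0.924). Fbxl5, for an iron-sensing ubiquitin ligase subunit, differed by 0.35 between Jak2VF/+ EZH2-/- and Jak2VF/+. Over the 16 genes the median was -0.04, 0.11 and 0.08 for Jak2VF/+ EZH2-/- minus Jak2VF/+, Jak2VF/+ EZH2-/- minus WT and Jak2VF/+ minus WT.

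Iron-sulphur assembly genes, whose clusters ferrochelatase carries, were measured for 10 of 15. Glrx5, for a glutaredoxin that hands on these clusters, differed from WT by 0.54 in Jak2VF/+ EZH2-/- and by 0.52 in Jak2VF/+ (limma, adjusted p = 0.556 and 0.924). Nfu1, a scaffold gene of the same route, differed from WT by 0.35 in Jak2VF/+ EZH2-/-. All 4 heme breakdown genes were measured, and the flavin and biliverdin reductase gene Blvrb stood apart from the others. Blvrb read 8.24, 8.01 and 8.29 in Jak2VF/+ EZH2-/- arrays, against 6.53, 7.81 and 6.76 in Jak2VF/+ arrays and 6.82, 7.67 and 6.92 in WT arrays. The Jak2VF/+ EZH2-/- arrays did not overlap the others, with differences of 1.15 from Jak2VF/+ and 1.04 from WT (limma, adjusted p = 0.442 and 0.466). Hmox1, for the inducible heme oxygenase, differed by 0.29 between Jak2VF/+ EZH2-/- and Jak2VF/+ and by -0.48 between Jak2VF/+ and WT (limma, adjusted p = 0.834 and 0.924).

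Erythroid markers share Klf1 and Gata1 with the regulators. They had 20 positive and 3 negative differences between Jak2VF/+ EZH2-/- and Jak2VF/+, where 41.8% of all genes were positive. The median of these markers was 0.33, beside -0.04 over all genes, and 0 passed the adjusted threshold with limma. The smallest p-values belonged to the blood group gene Rhd at 1.26, the tetraspanin gene Tspan33 at 1.05 and Nxpe2 at 0.95, none with overlap between the groups (limma, adjusted p from 0.352 to 0.504). Groups did not overlap, with Jak2VF/+ EZH2-/- above, for 5 of the 23 markers, against 4.18% of all genes. Between Jak2VF/+ EZH2-/- and WT, 21 markers were positive and 2 negative, where 46.5% of all genes were positive. Here the groups did not overlap, with Jak2VF/+ EZH2-/- above, for 1 of the 23 markers (Tspan33), against 6.28% of all genes. The differences were 0.94 for Tspan33, 0.81 for Rhd and 0.53 for the spectrin gene Sptb, the last 2 with overlapping arrays. Epor, for the erythropoietin receptor that signals through JAK2, differed by 0.32 between Jak2VF/+ EZH2-/- and Jak2VF/+, 0.35 between Jak2VF/+ EZH2-/- and WT and 0.03 between Jak2VF/+ and WT. Between Jak2VF/+ and WT, 10 erythroid markers were positive and 13 negative, with a median of -0.08, where 55.8% of all genes were positive.

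**Figure D4:**
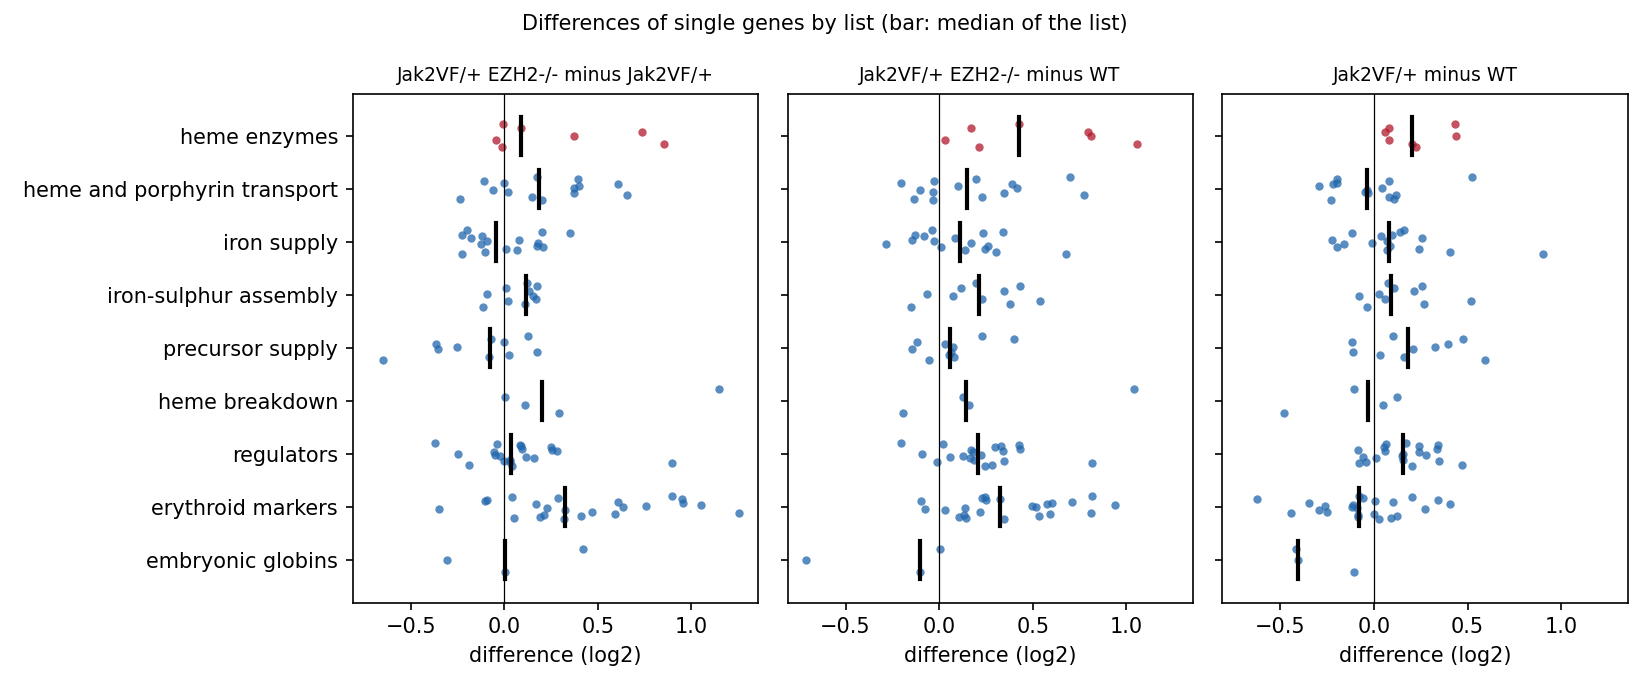
Difference in log2 signal of each measured gene in the heme pathway and its neighbouring lists, 1 point per gene, with a bar at the median of each list, for the 3 comparisons. The medians of the enzymes are 0.09, 0.42 and 0.20 from left to right, and those of the erythroid markers 0.33, 0.33 and -0.08.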

How the data were processed

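The series holds RNA of 9 sorted stem cell samples, 1 array each, in 3 groups of 3 given by the labels. Per the labels' protocols, 10 ng RNA was amplified with the Ovation Pico WTA System V2 and labelled with biotin, and the submitters' processing notes name Partek 6.6. The authors deposited log2 values of 41345 probe sets. The sources used here do not give background correction, normalization or genome build, and no further normalization was applied. In the platform annotation 23521 probe sets had 1 gene symbol, 1814 several and 16010 were unnamed here, and the brightest probe set per gene left 22180 genes, with no filter on low values.

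Groups were compared with limma 3.58.1 in R 4.3.3 (lmFit, eBayes without trend, all 9 arrays), with Benjamini-Hochberg adjustment over all genes within a comparison and a threshold of 0.05. The fit has 6 residual and 3.83 prior degrees of freedom. The 3 arrays per group limit the precision. How often a true difference of a given size would pass the threshold on these arrays was not tested.

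The members, gene lists, tests and named genes were chosen with earlier results of these data known. Besides the members, the rule names up to 3 genes of each list with the smallest p in a comparison, Ezh2, Gata1, Klf1 and Epor always, and the 3 genes most like each member. Promoters come from RefSeq (GRCm38.p6), where 7 of the 8 genes matched. Alternatives are given in the closing section.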

Additional observations from a re-analysis of the deposited data

How the results depend on the processing

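None of the 7 genes passed the adjusted threshold in any of 22 settings (462 gene by comparison values, smallest adjusted p = 0.0984), and the count stayed 0 with each array left out. At an unadjusted p of 0.05 it was 2 for Jak2VF/+ EZH2-/- against Jak2VF/+, 4 against WT and 1 for Jak2VF/+ against WT. Of 441 alternative values 417 kept direction and side of the threshold and 24 changed sign, 13 of them with 1 array left out. Alad differed by 0.65 to 1.09 between Jak2VF/+ EZH2-/- and Jak2VF/+ and by 0.77 to 1.35 between Jak2VF/+ EZH2-/- and WT over all settings, and Fech by 0.31 to 0.51 between Jak2VF/+ and WT.

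The changes of sign were all of small differences, and their cause was not tested. Between Jak2VF/+ EZH2-/- and Jak2VF/+, Fech became 0.0149 with quantile normalization and 0.0019 with median centring. Alas1 became 0.0137 with array weights, 0.018 with Y-linked signal as a covariate and 0.0022 after removal of both arrays that carry it, while Gata1 became -0.0142 and -0.0535 in these last 2 settings and -0.0251 with the receptor covariate. Between Jak2VF/+ EZH2-/- and WT, Uros became -0.0419 with the Y-linked covariate and -0.0477 without both such arrays, and Ppox -0.11 with the receptor covariate. Between Jak2VF/+ and WT, Cpox became -0.0003 with quantile normalization and -0.14 with the receptor covariate, and with the receptor covariate Ppox became -0.11 and Epor -0.12. The receptor covariate and the removal of both arrays with Y-linked signal were chosen after seeing the data.

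With single arrays left out, differences between Jak2VF/+ EZH2-/- and Jak2VF/+ ranged from -0.1177 to 0.1245 for Alas1, from -0.1075 to 0.0912 for Fech, from -0.1261 to 0.2229 for Ppox and from -0.1276 to 0.2406 for Gata1. Those between Jak2VF/+ EZH2-/- and WT ranged from -0.046 to 0.0835 for Uros. Those between Jak2VF/+ and WT ranged from -0.0296 to 0.4937 for Alad, from -0.2979 to 0.3346 for Cpox, from -0.0639 to 0.3459 for Ppox, from -0.2014 to 0.2522 for Epor and from -0.5168 to 0.2011 for Klf1. The medians of the 7 genes ranged from -0.06 to 0.22, 0.30 to 0.52 and 0.06 to 0.35 in these 3 comparisons. For Alas1 the difference between Jak2VF/+ and WT ranged from 0.09 to 0.35.

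Of all genes, 10 passed for Jak2VF/+ EZH2-/- against Jak2VF/+. This count was 0 with ordinary least squares, with only the 2 groups, with every probe set tested and after removal of both arrays with Y-linked signal, 4 with median centring, 4 with the Y-linked covariate, 19 without the dimmer part of the genes, 23 at an adjusted p of 0.1, 1529 at an unadjusted p of 0.05 and 0 to 17 with 1 array left out. For Jak2VF/+ EZH2-/- against WT 5 passed. This count was 0 with ordinary least squares, only the 2 groups, every probe set, the receptor covariate and removal of both arrays with Y-linked signal, 2 with the Y-linked covariate, 3 with median centring, 10 with an intensity trend and robust variance together, 14 with array weights, 13 at an adjusted p of 0.1, 1908 at an unadjusted p of 0.05 and 0 to 14 with 1 array left out. For Jak2VF/+ against WT 0 passed with limma and ordinary least squares, and 1034 at an unadjusted p of 0.05.

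With the replicate number as a block, 0 genes passed for Jak2VF/+ EZH2-/- against Jak2VF/+ and 0 against WT, and 0 of the 7 enzymes passed. Deviations of same-numbered arrays correlated between -0.23 and 0.48 over the 3 comparisons, with 0.21 and 0.48 for replicates 1 and 2 of Jak2VF/+ and WT. The labels name no shared litter or day, and whether same-numbered arrays share a batch was not tested.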

Other observations

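Genes of heme-carrying proteins in myeloid cells and of precursor supply gave no call. Of 9 such myeloid genes (10 listed), 0 passed with limma in any comparison. The median difference was 0.00 between Jak2VF/+ EZH2-/- and Jak2VF/+ and 0.01 between Jak2VF/+ EZH2-/- and WT. Single genes differed more. Mpo, Cat and Cybb averaged 9.245, 8.356 and 4.816 in Jak2VF/+ EZH2-/-, against 9.825, 8.735 and 5.061 in Jak2VF/+, without overlap. On the higher side 1 of the 9 did not overlap, against 4.18% of all genes, and the share of all genes on the lower side was not counted. Of 10 genes that supply glycine, succinyl-CoA and pyridoxal phosphate (12 listed), 0 passed. Shmt2, for the mitochondrial enzyme that makes glycine from serine, differed by -0.65 between Jak2VF/+ EZH2-/- and Jak2VF/+ (limma, adjusted p = 0.743). Aldh1l2, for a mitochondrial folate enzyme, differed by 0.40 between Jak2VF/+ and WT (limma, adjusted p = 0.924).

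Of 10 globin and haemoglobin-stabilising genes listed, 3 embryonic globin genes were measured. Hbb-bh1 read 3.67, 4.12 and 3.98 in Jak2VF/+ EZH2-/-, 4.81, 3.62 and 4.25 in Jak2VF/+ and 4.89, 3.97 and 5.04 in WT, close to the receptor genes taken as a floor in Jak2VF/+ EZH2-/-, so no difference is given for it. Markers of macrophages that recycle heme (12 of 12 measured) had a median difference of -0.12 between Jak2VF/+ EZH2-/- and Jak2VF/+ and 0 genes past the threshold with limma. Megakaryocyte markers (11 of 14 measured) were all negative between Jak2VF/+ EZH2-/- and Jak2VF/+, where 41.8% of all genes were positive. The median of these markers was -0.61, and 1 gene passed the threshold, the integrin gene Itga2b, at -1.45 (limma, adjusted p = 0.0441). Over all genes 0.0451% passed here, and 0 genes passed with ordinary least squares, only the 2 groups, every probe set, the replicate block or without Jak2VF/+ EZH2-/- replicate 2 or any single Jak2VF/+ array, so this call was lost there. Between Jak2VF/+ and WT the same list had a median of 0.58, with 10 of 11 positive, against 55.8% of all genes. Itga2b was named after its values were seen.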
